A study of Drosophila melanogaster with 8 samples.

Results

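Posterior midgut enterocytes that made a constitutive activator form of the transcription factor Shavenbaby (Svb) were compared with enterocytes that carried a hairpin transgene against it. The libraries were taken by their labels, 3 labelled SvbAct and 3 labelled RNAiSvb, which made 6 of the 8 libraries in the series. The other 2, labelled Ctrl, entered the fit to share one estimate of the spread, and their values are given beside those of the compared groups. Libraries were assigned to groups from their labels and not from their values, although earlier results of these data were known when the contrast was chosen.

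All flies were adult virgin female Drosophila melanogaster. Every group, Ctrl included, carried MyoIA-Gal4, UAS-GFP and tubGal80TS. MyoIA-Gal4 is a driver active in enterocytes, and tubGal80TS is a heat-sensitive repressor that holds Gal4 inactive until the flies are warmed. SvbAct flies also carried UAS-SvbACT::GFP, RNAiSvb flies a UAS-SvbRNAi line from the Vienna stock centre, and Ctrl flies came from a cross of the driver stock to Canton-S. Flies were moved to 29 °C at an age of 3 days and dissected at 9 days, after 6 days of induction. Guts of many females were pooled for each library. After digestion a strainer held back enterocyte patches, which were kept, and let loose cells such as progenitors flow away. The strain label speaks of intestinal stem cells in place of enterocytes as the site of transgene activity, and the genotype was followed here. One hairpin line was used, and nothing in the labels ties a replicate number to the same day in different groups.

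Svb is a zinc finger factor encoded by the ovo locus. It is made as a long repressor that is trimmed by the proteasome, at the prompting of small Polished rice peptides, into a shorter activator, and in the embryo the activator turns on the genes that build epidermal hairs. In the adult midgut, stem cells renew the absorptive enterocytes through a transient enteroblast state in which Notch signalling is on. Enterocytes make the digestive enzymes and transporters of the gut, carry a brush border towards the lumen and lie under a peritrophic matrix of chitin and glycoproteins.

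Total counts were 17283691, 15450011 and 16627165 in SvbAct replicates 1, 2 and 3 and 22039475, 23748649 and 18970324 in those of RNAiSvb. In a principal component analysis of the 6 libraries, the first component held 47.7% of the variance, with SvbAct from -52.4 to -25.1 and RNAiSvb from 21.3 to 55. The second component held 21.9% and set replicate 2 of each group, at -37.3 and -31.4, apart from the other 4 libraries, which lay between 3.37 and 25.8. Counts of called genes that lead a paragraph are therefore also given without these 2 libraries, a choice made after seeing the data. The labels give no separate cultures or animals for the replicates beyond their numbers and the statement of different days, so p-values measure the spread between these pooled preparations.

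The targeted gene was read first. The gene ovo (FBgn0003028, chromosome X, 5048273 to 5070929, plus strand, BDGP6.54) had 868, 1189 and 762 counts in SvbAct replicates 1, 2 and 3. It had 40, 26 and 61 counts in the libraries labelled RNAiSvb and 9 and 2 in Ctrl. The SvbAct libraries were far above all others, and those labelled RNAiSvb lay above Ctrl. A reduction by the hairpin was not seen, but Ctrl was near the floor, where one could hardly show. No direction given here rests on such a reduction. The difference between SvbAct and the libraries labelled RNAiSvb was 4.89 on the log2 scale (SE 0.43, edgeR quasi-likelihood adjusted p 0.000329). Counts of the transgene and of the locus were not separated. A long noncoding RNA gene on the other strand, lncRNA:CR44833, overlaps exons of ovo and went the other way. Its level was 0.662, 2.02 and 0.912 CPM (counts scaled to the library total and TMM factor) in SvbAct, 7.13, 15.2 and 19.4 CPM in the libraries labelled RNAiSvb, and 1.18 and 3.02 CPM in Ctrl. It was the RNAiSvb group that stood apart for this gene, with no overlap with either other group. It fell by 3.56 on the log2 scale in SvbAct relative to RNAiSvb (SE 0.56, edgeR quasi-likelihood adjusted p 0.00552), and since strand handling in the counting was not stated, both genes are uncertain where they overlap.

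Of 8775 genes tested, 549 passed an adjusted p of 0.05 in edgeR's quasi-likelihood test, which is 6.26%. In SvbAct 355 were higher (4.05%) and 194 were lower (2.21%). The median log2 difference was 1.51 among genes called higher, -1.01 among those called lower and -0.02 over all genes tested. A difference of at least 2 on the log2 scale was reached by 132 of the genes that rose and 27 of those that fell. Without replicate 2 of either group 197 genes passed, 143 higher and 54 lower. Leaving out 1 library of the comparison gave between 262 and 497 calls, the fewest without SvbAct replicate 2, where 262 passed, and without RNAiSvb replicate 2, where 269 passed. Without SvbAct replicate 1 the count was 349, and without RNAiSvb replicate 3 it was 332. The genes called lower were fewer in more of these fits, with 90, 73 and 122 without SvbAct replicates 1, 2 and 3, 66 and 107 without RNAiSvb replicates 2 and 3, and 115 and 114 without Ctrl replicates 1 and 2. A core of 148 genes, 113 higher and 35 lower, was called under each of 15 alternative settings. Values in all 3 libraries of a group lay beyond all 3 of the other for 2611 genes (29.8%), with 1305 higher (14.9%) and 1306 lower (14.9%) in SvbAct.

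**Figure D1:**
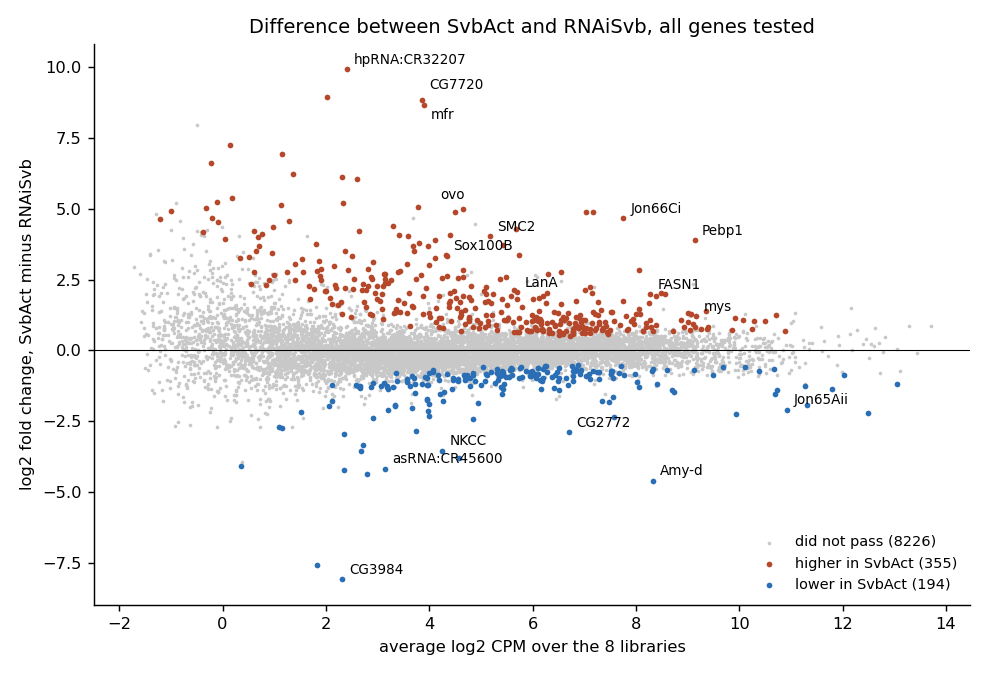
Log2 fold change of SvbAct relative to RNAiSvb (vertical axis) against average log2 CPM over the 8 libraries (horizontal axis) for 8775 genes. Red points are the 355 genes called higher in SvbAct and blue points the 194 called lower, and grey points did not pass; the large changes towards SvbAct lie mostly among genes of low to middle level. Fitted values of genes with few or no counts in a group, hpRNA:CR32207 among them, depend on the prior count.

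Among the genes that rose most, several were almost without counts in the libraries labelled RNAiSvb. The gene mfr, a ferlin family member known for its part in sperm function (FBgn0266757, chromosome 3L, 8905918 to 8912671), stood at 33.9, 54.0 and 30.5 CPM in SvbAct. It had 4, 1 and 1 counts in the libraries labelled RNAiSvb and 0 and 1 in Ctrl, so that SvbAct alone was high. The difference was 8.66 on the log2 scale (SE 0.49, edgeR quasi-likelihood adjusted p 3.6e-05), although its exons overlap Tsp66E on the other strand. Its neighbour in rank was blanks, a double-stranded RNA binding protein known from the testis (FBgn0035608, chromosome 3L, 5497523 to 5498958), with 220, 86 and 246 counts in SvbAct. Only 1 count was found in the libraries labelled RNAiSvb, all in replicate 1, and 0 in Ctrl. The ratio of SvbAct to RNAiSvb was 729, with an exact 95% interval from 130 to 28900 that covers counting error only (edgeR quasi-likelihood adjusted p 0.000396). The homeobox gene OdsH, also known from the male germ line, had 13.4, 11.7 and 11.0 CPM in SvbAct, 0.454, 0.0427 and 0.0 CPM in RNAiSvb and 1.23 and 1.39 CPM in Ctrl. It rose by 6.12 (SE 0.74, edgeR quasi-likelihood adjusted p 0.00137). Of a list of 14 testis markers 4 were tested and 0 were called, with log2 differences from -0.10 to 0.44.

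CG7720 followed the same pattern, with 887, 324 and 738 counts in SvbAct against 1, 1 and 3 in the libraries labelled RNAiSvb and 6 and 31 in Ctrl (log2 difference 8.84, SE 0.70, edgeR quasi-likelihood adjusted p 0.000215). The condensin subunit gene SMC2 (FBgn0027783, chromosome 2R, 14848621 to 14852653) was at 105, 71.2 and 88.1 CPM in SvbAct. It lay at 4.59, 2.95 and 8.56 CPM in RNAiSvb and at 4.71 and 2.66 CPM in Ctrl, so the 5 libraries without the activator shared one low range. The rise was 4.04 (SE 0.38, edgeR quasi-likelihood adjusted p 0.000396). Pebp1, of the phosphatidylethanolamine-binding protein family, was among the most abundant genes with a large change. It had 963, 1850 and 844 CPM in SvbAct, 94.8, 95.5 and 57.9 CPM in RNAiSvb and 272 and 327 CPM in Ctrl, with Ctrl between the other groups. Its log2 difference was 3.88 (SE 0.34, edgeR quasi-likelihood adjusted p 0.000329). Mov10, an RNA helicase gene, rose by 4.88 (SE 0.66, adjusted p 0.00254) from a range of 3.46 to 20.5 CPM in RNAiSvb to 194 to 534 CPM in SvbAct, and its exons overlap CG30460 on the other strand. CG44013 rose by 5.00 and the noncoding lncRNA:CR45570 by 6.04, the latter with 15.7, 2.92 and 27.9 CPM in SvbAct. The ID FBgn0003888, without a symbol in the annotation used here, rose by 4.90, from at most 22.7 CPM in RNAiSvb to at least 239 CPM in SvbAct.

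Among the genes that fell most, CG3984 (FBgn0038291, chromosome 3R, 15137148 to 15139007) had 0, 0 and 1 counts in SvbAct, 125, 154 and 189 in the libraries labelled RNAiSvb and 149 and 152 in Ctrl. The ratio of RNAiSvb to SvbAct was 354, with an exact 95% interval from 63.3 to 14000 for counting error (edgeR quasi-likelihood adjusted p 0.000215). Its neighbours CG6912 and asRNA:CR45600 fell by 4.21 and 4.18 on the log2 scale. The antisense gene shares exon sequence with both, so their counts may not be separate. CG2772 had 17.8, 16.1 and 17.4 CPM in SvbAct. It had 91.6, 130 and 160 CPM in RNAiSvb and 217 and 180 CPM in Ctrl, and the groups did not overlap (log2 difference -2.89, SE 0.21, edgeR quasi-likelihood adjusted p 0.000215). The cation-chloride cotransporter NKCC was highest in the libraries labelled RNAiSvb, with Ctrl between the other groups. It had 3.31, 4.94 and 2.22 CPM in SvbAct, 33.2, 48.6 and 38.7 CPM in RNAiSvb and 13.9 and 6.34 CPM in Ctrl, and fell by 3.53 (SE 0.37, edgeR quasi-likelihood adjusted p 0.000662).

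The DNA photolyase gene phr showed the same arrangement as NKCC, with 1.65, 1.18 and 1.2 CPM in SvbAct, 8.63, 18.4 and 14.3 CPM in RNAiSvb and 2.89 and 2.84 CPM in Ctrl, and fell by 3.34. Its exons overlap Prosalpha1. Ect3, a beta-galactosidase gene, fell by 2.96, with 1.25 to 1.71 CPM in SvbAct and 6.82 to 18.0 CPM in RNAiSvb. It was lower still in Ctrl, at 0.588 and 0.362 CPM. CG4830 fell by 4.37, but its RNAiSvb values were 7.9, 8.08 and 0.435 CPM and its call was lost on leaving out any 1 of SvbAct replicates 1, 2 and 3 or RNAiSvb replicates 1 and 2 (edgeR adjusted p 0.0759, 0.105, 0.0719, 0.0584 and 0.0952).

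**Figure D2:**
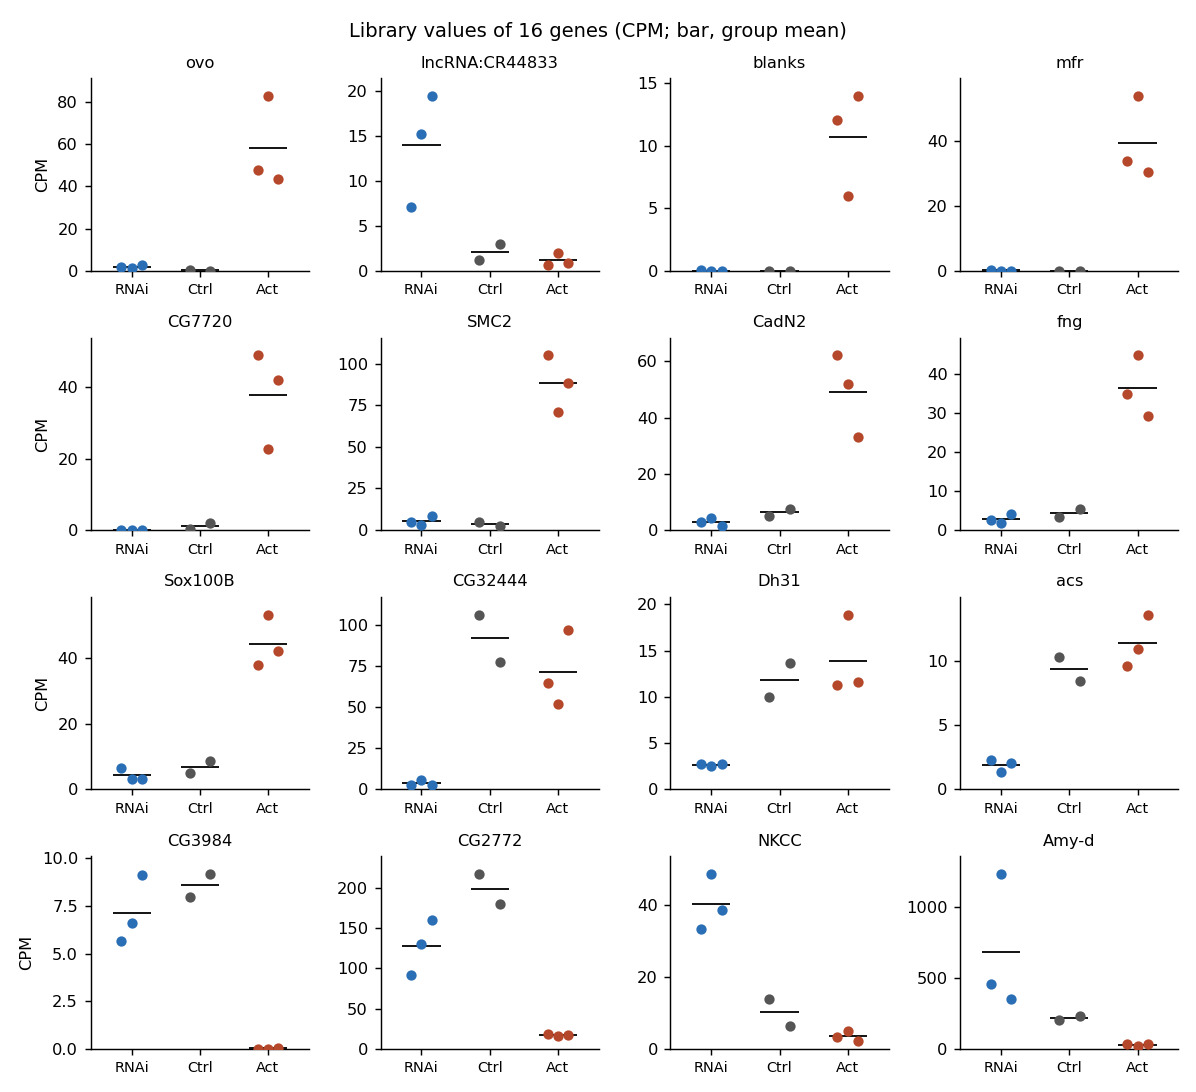
CPM of 16 genes in each library (points) with the group mean (bar), each panel on its own linear axis from 0. The SvbAct points of ovo, mfr, SMC2 and fng stand above all others, those of CG3984 and CG2772 below all others, and for CG32444, Dh31 and acs it is the RNAiSvb points that stand apart from both other groups.

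The same difference between SvbAct and RNAiSvb was met with Ctrl in several places, and no contrast with Ctrl is tested here. Of the 355 genes called higher, the Ctrl mean lay between the other group means in 230 (64.8%), below both in 87 (24.5%) and above both in 38 (10.7%). Of the 194 called lower it lay between in 147 (75.8%), below both in 12 (6.19%) and above both in 35 (18.0%). Over all genes tested the shares were 37.0% between, 32.2% below and 30.8% above. On a log2 scale with 0.1 CPM added, Ctrl was nearer to SvbAct than to RNAiSvb in 110 of the genes called higher (31.0%) and in 84 of those called lower (43.3%), against 46.6% of all genes tested. Each called gene has its groups apart by selection, and the Ctrl means rest on 2 libraries.

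Genes called higher for which Ctrl sat with SvbAct were low in the libraries labelled RNAiSvb alone. CG32444 had 64.4, 52.1 and 96.4 CPM in SvbAct and 106 and 77.2 CPM in Ctrl, but 2.91, 5.51 and 2.47 CPM in RNAiSvb (log2 difference 4.28, SE 0.35, edgeR quasi-likelihood adjusted p 0.000223). It overlaps asRNA:CR45955 on the other strand, which rose with it, from 2 counts over the RNAiSvb libraries to 235 over those of SvbAct, a ratio of 155 with a counting interval from 42.5 to 1290. CG43400 had 8.22, 6.82 and 8.9 CPM in SvbAct, 7.7 and 7.37 CPM in Ctrl and 0.545, 0.0855 and 0.0 CPM in RNAiSvb. The organic anion transporter gene Oatp58Da had 10.6, 10.6 and 10.7 CPM in SvbAct, 12.5 and 9.3 CPM in Ctrl and at most 2.08 CPM in RNAiSvb. The fibroblast growth factor gene bnl, at 234 to 259 CPM in SvbAct and 217 and 228 CPM in Ctrl, was at 87.7 to 107 CPM in RNAiSvb (log2 difference 1.35, SE 0.14, edgeR quasi-likelihood adjusted p 0.000662). For hpRNA:CR32207, a hairpin RNA gene, there were 111, 119 and 82 counts in SvbAct, 255 and 152 in Ctrl and 0 in each library labelled RNAiSvb. It was thus at least 140-fold higher in SvbAct, taking a floor of 3 counts over the RNAiSvb group, and it overlaps CR42842 on the other strand.

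**Figure D3:**
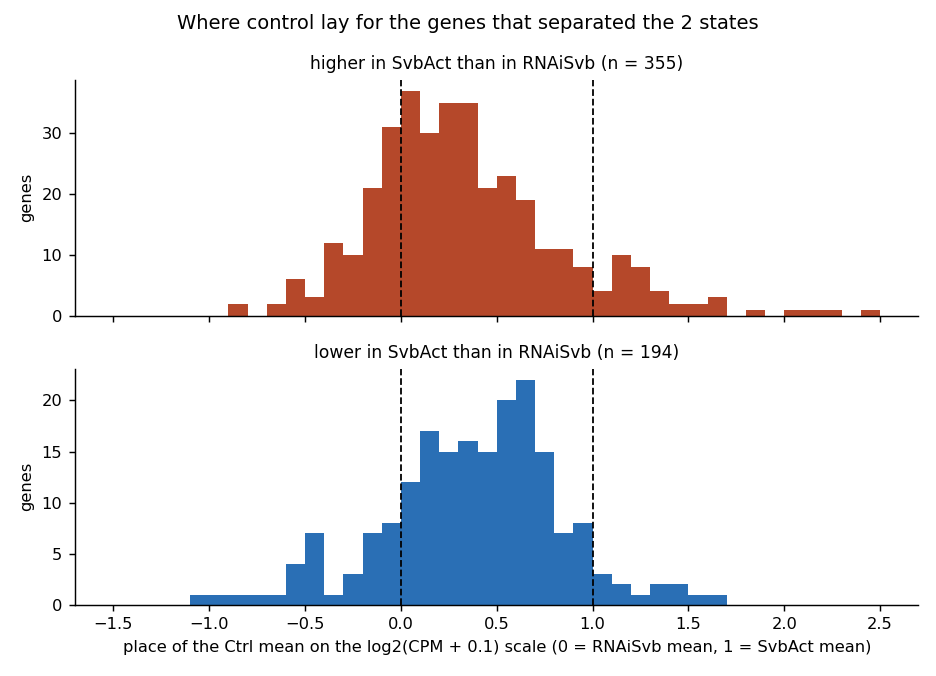
Place of the Ctrl mean between the RNAiSvb mean (0) and the SvbAct mean (1) on the log2(CPM + 0.1) scale for the genes called higher (upper panel, n = 355) and lower (lower panel, n = 194) in SvbAct; bars count genes. The median place was 0.28 for genes called higher and 0.41 for genes called lower, and both distributions run past 0 and past 1.

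Gene lists were used to describe which functions separated the states. Of 45 function lists, 19 had calls only towards SvbAct, 8 only towards RNAiSvb and 8 in both directions, and 10 had none. The lists together held 1393 of the tested genes and 129 of the called ones, so 420 called genes lay in none of them.

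**Figure D4:**
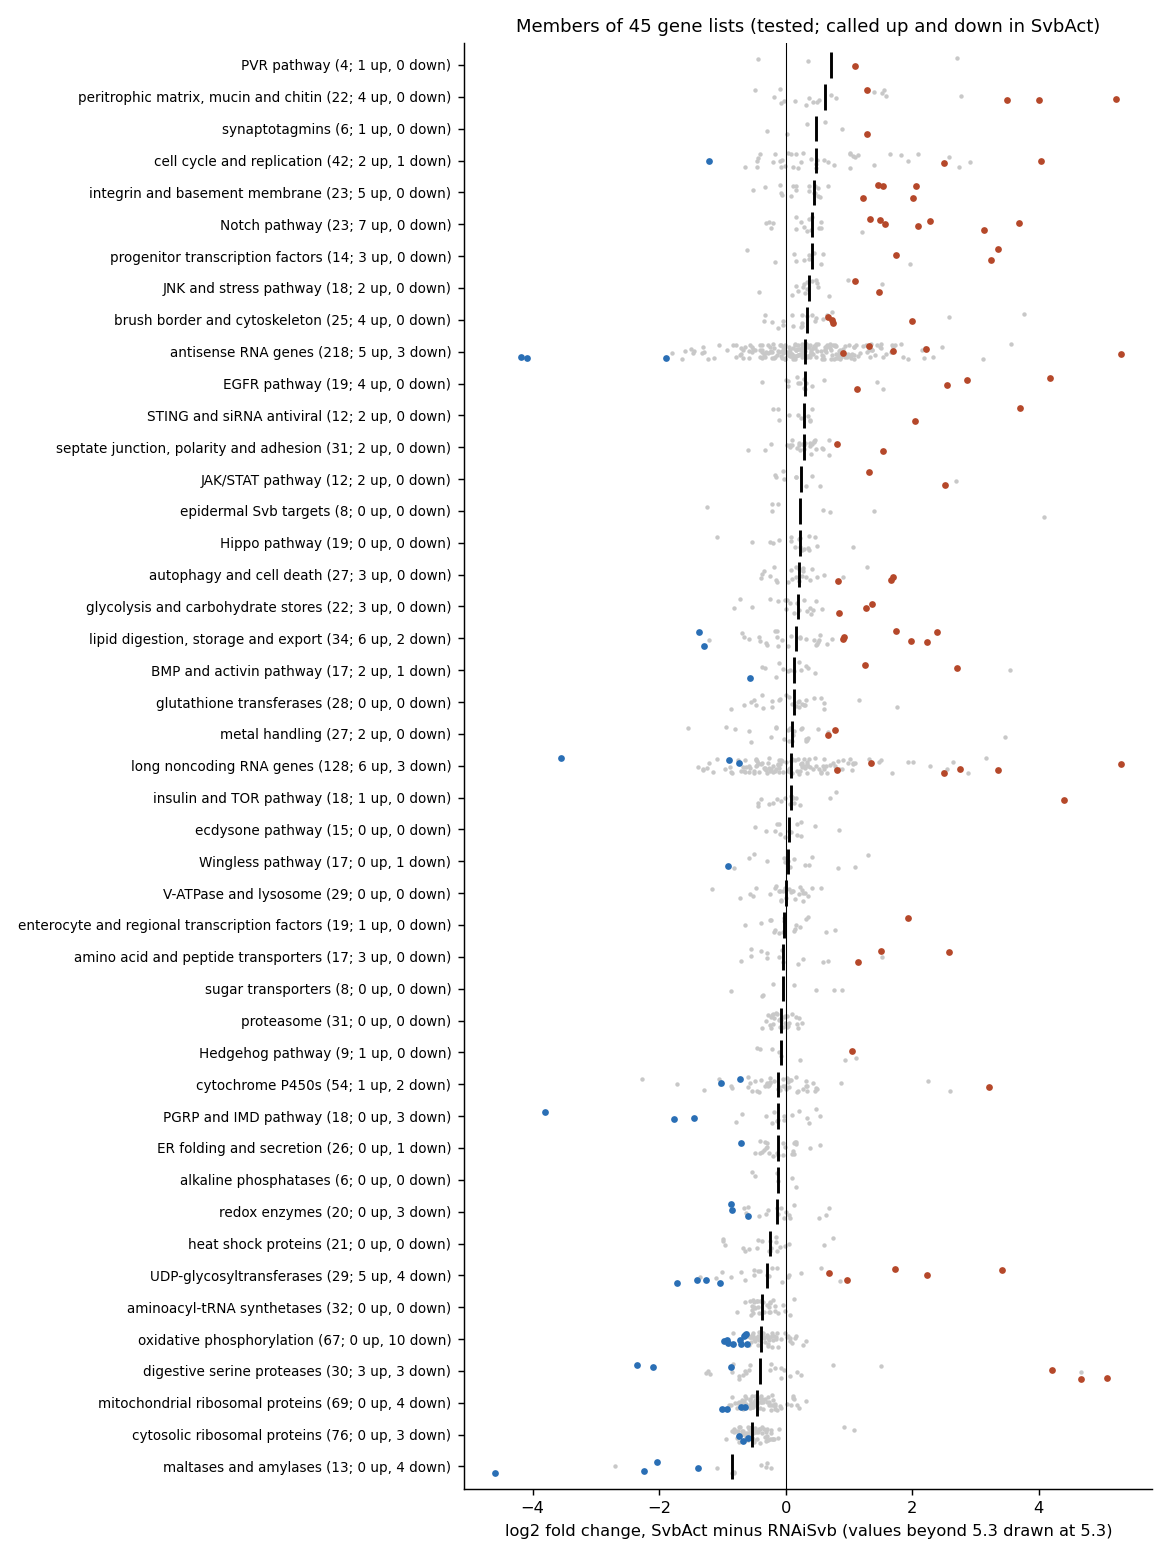
Log2 fold change of SvbAct relative to RNAiSvb (horizontal axis) for the tested members of 45 gene lists, ordered by median (black bars); red and blue points are members called higher and lower, grey points did not pass, and values beyond 5.3 are drawn at 5.3. The list of maltases and amylases has the lowest median, followed by cytosolic and mitochondrial ribosomal proteins, digestive serine proteases and oxidative phosphorylation. The PVR pathway has the highest, followed by the peritrophic matrix, synaptotagmins, cell cycle and replication, integrins and the Notch pathway.

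The Notch pathway had 7 of 23 tested members called, all higher in SvbAct (30.4%, against 4.05% of all genes), with a list median of 0.41. Between 5 and 7 were called with any 1 library left out, and 5 without replicate 2 of both groups. The receptor N had 25.2, 43.9 and 25.3 CPM in SvbAct, 12.8, 11.3 and 9.43 CPM in RNAiSvb and 5.99 and 6.58 CPM in Ctrl. All 3 SvbAct libraries lay above the rest, by 1.49 on the log2 scale over RNAiSvb (SE 0.26, edgeR quasi-likelihood adjusted p 0.00881). The glycosyltransferase fng, which modifies the receptor, had 35.0, 44.9 and 29.3 CPM in SvbAct against 2.68, 1.79 and 4.01 CPM in RNAiSvb and 3.26 and 5.32 CPM in Ctrl (log2 difference 3.69, SE 0.34, edgeR quasi-likelihood adjusted p 0.000396). Its exons overlap CG10589 on the other strand. The metalloprotease gene kuz, whose product cuts the receptor, rose by 1.33, a call lost only without replicate 2 of both groups among the alternatives (edgeR adjusted p 0.0645).

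The ligand Delta rose by 1.57, from 5.64 to 10.2 CPM in RNAiSvb to 15.4 to 29.3 CPM in SvbAct. Its call was lost without SvbAct replicate 2 (edgeR adjusted p 0.0501) or RNAiSvb replicate 2 (0.0507). Among targets of the pathway, the basic helix-loop-helix repressor E(spl)mbeta-HLH had 14.3, 20.0 and 13.8 CPM in SvbAct and 3.27, 3.85 and 2.76 CPM in RNAiSvb, and rose by 2.28. E(spl)m3-HLH rose by 3.13, and the Bearded family member E(spl)malpha-BFM by 2.09, the latter lost on leaving out SvbAct replicate 1 or 3 or RNAiSvb replicate 1 or 2 (edgeR adjusted p 0.0546 to 0.0872). The nuclear factor Su(H) did not pass, with a difference of 0.55 and an adjusted p of 0.361.

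N, Delta, E(spl)mbeta-HLH, E(spl)m3-HLH and E(spl)malpha-BFM are also markers of intestinal stem cells and enteroblasts, the progenitors that the strainer was meant to remove. Of 12 progenitor markers 10 were in the table and tested, and all 10 had a positive difference. The median was 1.92, and 8 were called higher (80.0%, against 4.05% of all genes). The Notch pathway genes just named are among these 8, so both lists count them. Without replicate 2 of both groups 7 were called. The summed level of the list was 1150, 1490 and 1200 CPM in SvbAct, 901, 935 and 736 CPM in RNAiSvb and 857 and 865 CPM in Ctrl. Most of that sum came from peb, which did not pass (839, 1090 and 925 CPM in SvbAct and 769, 825 and 609 CPM in RNAiSvb), while klu, at 70.0 to 105 CPM in SvbAct and 62.8 to 78.6 CPM in RNAiSvb, overlapped between groups. The stem and enteroblast factor Sox21a had 29.2, 58.7 and 32.4 CPM in SvbAct, 7.9, 1.37 and 3.38 CPM in RNAiSvb and 2.67 and 3.14 CPM in Ctrl (log2 difference 3.25, SE 0.53, edgeR quasi-likelihood adjusted p 0.00703). Sox100B, another factor of progenitors, had 37.8 to 53.2 CPM in SvbAct and at most 6.54 CPM in RNAiSvb, and rose by 3.36. The zinc finger and homeodomain factor zfh2 rose by 1.74 and overlaps Tdg. In bulk RNA, a different number of cells of a type and a different amount of RNA per cell cannot be told apart, and the part of remaining progenitors in these results was not tested.

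Enterocyte identity genes were present at high level in both groups. The summed level of 12 enterocyte markers lay between 13900 and 18100 CPM in the 8 libraries, and its median difference was 0.06. Among them 1 was called higher and 1 lower (8.33% each, against 4.05% and 2.21% of all genes), and 0 and 0 by edgeR without replicate 2 of both groups. The unconventional myosin gene Myo31DF, whose enterocyte expression is used by the driver, had 555, 740 and 601 CPM in SvbAct and 701, 710 and 548 CPM in RNAiSvb. Of 19 transcription factors of enterocytes and gut regions 1 was called, higher (5.26%), near the 4.05% of all genes. It was pdm2, a POU factor, with 100, 174 and 104 CPM in SvbAct, 43.8, 31.1 and 24.3 CPM in RNAiSvb and 55.4 and 58.1 CPM in Ctrl (log2 difference 1.93, SE 0.26, edgeR quasi-likelihood adjusted p 0.00254). Its partner at the same locus, nub, had 1020, 1440 and 1240 CPM in SvbAct and 861, 703 and 821 CPM in RNAiSvb, groups that did not overlap, and missed the threshold (adjusted p 0.059). Of 16 epidermal genes known as Svb targets in the embryo 8 were tested and 0 were called by edgeR, with a list median of 0.23. Differences ran from -1.24 to 4.09. Of the 8, 1 was higher in SvbAct without overlap (14.9% of all genes were), and the DESeq2 Wald test called 1 higher. Genes of the list in the table together summed to between 17.4 and 28.5 CPM in each of the 8 libraries. The actin bundler sn, one of them, had 5.85, 1.88 and 3.82 CPM in SvbAct and 5.54, 2.69 and 4.4 CPM in RNAiSvb, and m, a zona pellucida protein of the hair matrix, was below 1 CPM in all libraries.

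**Figure D5:**
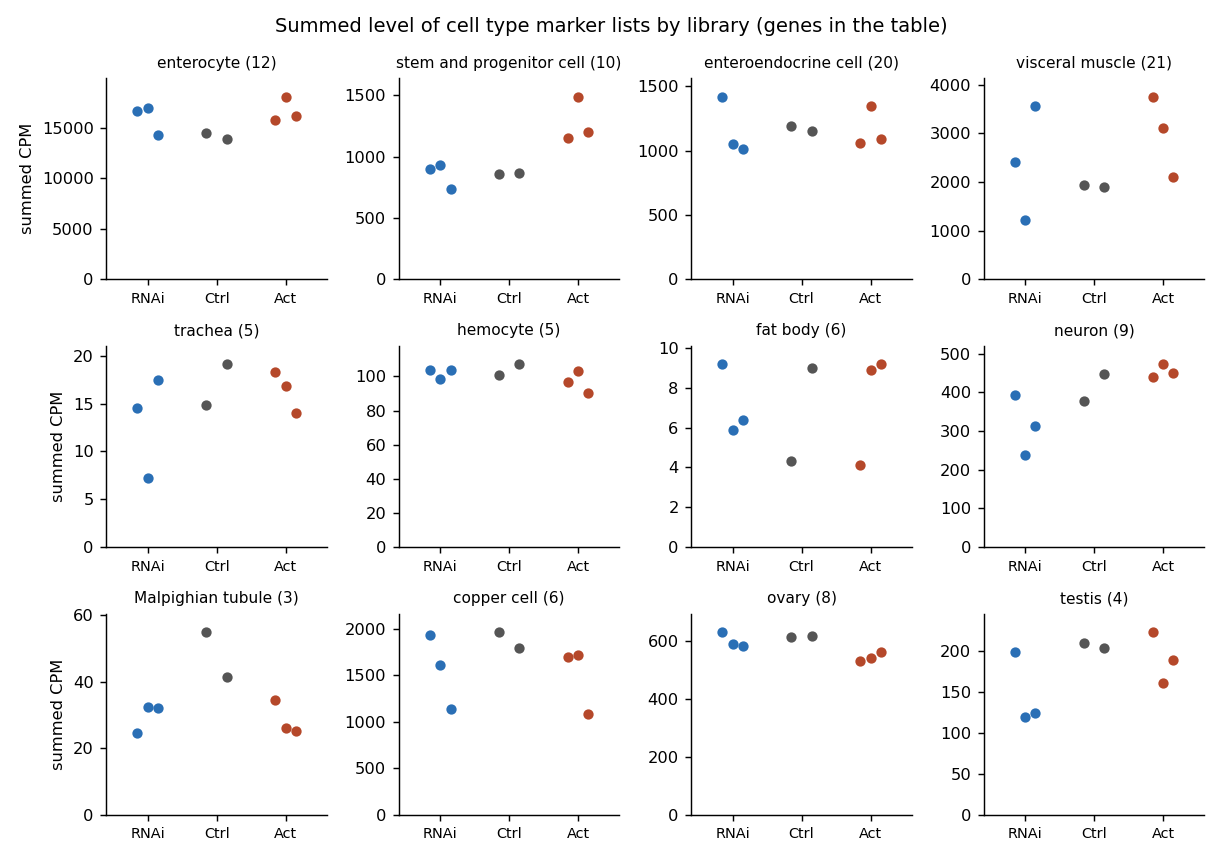
Summed CPM of 12 cell type marker lists in each library, each panel on its own linear axis from 0, with the number of list genes in the table after the name. The progenitor sum was higher in the 3 SvbAct libraries (1150 to 1490) than in the other 5 (736 to 935), while the enterocyte, enteroendocrine and visceral muscle sums overlapped between SvbAct and RNAiSvb. The neuron sum was also higher in SvbAct (440 to 472) than in RNAiSvb (238 to 394), with Ctrl at 378 and 447. The ovary sum was lower in SvbAct (532 to 564) than in RNAiSvb (582 to 631), with Ctrl at 613 and 617.

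Enteroendocrine cells, the hormone-making cells of the gut, were followed through 20 markers, with a median of 0.04. Of these, 3 were called higher (15.0%, against 4.05% of all genes) and 0 lower, also without replicate 2 of both groups. Their summed level overlapped, at 1060 to 1350 CPM in SvbAct and 1010 to 1420 CPM in RNAiSvb. The peptide hormone gene Dh31 had 11.3, 18.9 and 11.6 CPM in SvbAct, 2.77, 2.56 and 2.71 CPM in RNAiSvb and 9.95 and 13.7 CPM in Ctrl. For this gene Ctrl lay with SvbAct. The channel gene Ih had 17.0, 22.9 and 15.9 CPM in SvbAct, 3.95, 2.31 and 2.27 CPM in RNAiSvb and 3.48 and 2.96 CPM in Ctrl, so that here Ctrl lay with RNAiSvb. They rose by 2.37 and 2.71 (SE 0.28 and 0.30, edgeR quasi-likelihood adjusted p 0.00136 and 0.000904), and the peptide gene ITP rose by 1.99. The hormone genes Tk (19.1, 24.4 and 22.8 against 23.5, 25.8 and 14.5 CPM) and AstC (161, 175 and 174 against 232, 150 and 169 CPM) overlapped between SvbAct and RNAiSvb. Visceral muscle markers had a median of -0.40 with 0 of 21 called, and summed to 3750, 3110 and 2110 CPM in SvbAct and 2410, 1220 and 3560 CPM in RNAiSvb.

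In the JAK/STAT list of 12 genes, 2 were called, both higher (16.7%), also without replicate 2 of both groups. The cytokine gene upd3, which drives regeneration in the gut, had 66.2, 120 and 63.6 CPM in SvbAct, 23.0, 6.49 and 14.2 CPM in RNAiSvb and 12.1 and 25.7 CPM in Ctrl (log2 difference 2.52, SE 0.45, edgeR quasi-likelihood adjusted p 0.0108). The pathway's feedback inhibitor Socs36E, itself a target, had 891, 847 and 756 CPM in SvbAct and 303, 289 and 414 CPM in RNAiSvb, and rose by 1.31 (SE 0.18, adjusted p 0.00319). The receptor dome and the factor Stat92E had differences of 0.33 and 0.16, with adjusted p of 0.295 and 0.561.

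In the epidermal growth factor receptor list 4 of 19 were called, all higher (21.1%). There were 2 without SvbAct replicate 2 or RNAiSvb replicate 1, and 1 without replicate 2 of both groups. The neuregulin-like ligand vn had 30.3, 64.1 and 20.7 CPM in SvbAct and 6.04, 3.42 and 10.3 CPM in RNAiSvb, and rose by 2.54 (SE 0.47, edgeR quasi-likelihood adjusted p 0.0119). The receptor Egfr had 44.0, 47.6 and 37.4 CPM in SvbAct, 20.8, 20.3 and 18.0 CPM in RNAiSvb and 11.9 and 17.8 CPM in Ctrl, a rise of 1.12 (SE 0.20, adjusted p 0.00941), lost without replicate 2 of both groups (0.0653). The protease rho, which releases ligands, rose by 2.86, but lost its call without SvbAct replicate 2 (0.077), RNAiSvb replicate 1 (0.0587) or RNAiSvb replicate 3 (0.0625). The transcription factors pnt and aop had differences of 0.31 and 0.29 and did not pass.

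In the list of the bone morphogenetic protein and activin pathways 2 of 17 were called higher (11.8%) and 1 lower (5.88%), and 1 and 0 without replicate 2 of both groups. The higher count was also 1 without SvbAct replicate 1 or 2, and the lower count 0 without any 1 library but RNAiSvb replicate 1. None of its 4 ligands was called by edgeR. The extracellular modulator cv-2 had 121, 242 and 107 CPM in SvbAct, 30.3, 15.0 and 26.7 CPM in RNAiSvb and 39.5 and 45.2 CPM in Ctrl, and rose by 2.71 (SE 0.34, edgeR quasi-likelihood adjusted p 0.00178). In the JNK and stress list 2 of 18 were called, both higher (11.1%), and 1 without RNAiSvb replicates 2 or 3, SvbAct replicate 1 or replicate 2 of both groups. The tumour necrosis factor homologue egr, of that list, rose by 1.47, a call lost without RNAiSvb replicate 3 (adjusted p 0.0522) or SvbAct replicate 1 (0.0622). The growth factor gene Pvf1, the only call in the PVR list of 4, rose by 1.09, lost without RNAiSvb replicate 2 (0.0571). In the insulin and TOR list 1 of 18 genes was called, higher (5.56%), near the 4.05% of all genes. It was the insulin-binding antagonist ImpL2, which had 5.96, 31.6 and 9.92 CPM in SvbAct and at most 1.27 CPM in RNAiSvb, and rose by 4.40. Ctrl held 4.87 and 23.7 CPM, and RNAiSvb replicate 2 was needed for this call (0.0616 without it). In the Wingless list 0 of 17 were called higher and 1 lower (5.88%), and 0 lower without SvbAct replicates 2 or 3, RNAiSvb replicates 2 or 3, either Ctrl library or replicate 2 of both groups. In the Hippo list 0 of 19 genes were called, and its effector yki differed by 0.29 (edgeR adjusted p 0.308). The ecdysone list had 0 of 15 called.

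In the list of integrins and the basement membrane 5 of 23 genes were called, all higher (21.7%), with 18 positive differences and a median of 0.45. With 1 library left out 4 to 6 were called, and without replicate 2 of both groups 3. The laminin chain LanA had 93.1, 134 and 81.9 CPM in SvbAct, 29.2, 18.7 and 26.3 CPM in RNAiSvb and 15.3 and 16.3 CPM in Ctrl. Every SvbAct library lay above every other one, and the rise was 2.06 (SE 0.23, edgeR quasi-likelihood adjusted p 0.000878). The laminin chain LanB1 rose by 1.54, and LanB2 by 1.46, the latter lost without SvbAct replicate 2 (0.0712) or RNAiSvb replicate 2 (0.0644). The integrin beta subunit mys had 900, 1020 and 743 CPM in SvbAct, 450, 311 and 385 CPM in RNAiSvb and 361 and 442 CPM in Ctrl, and rose by 1.22 (SE 0.19, adjusted p 0.0059). The matrix metalloprotease Mmp2 rose by 2.02 and overlaps asRNA:CR44069. The collagen gene vkg was below 2 CPM in every library and did not pass.

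In the septate junction, polarity and adhesion list 2 of 31 were called, both higher (6.45%, against 4.05% of all genes), and 28 differences were positive. The count was 1 without replicate 2 of SvbAct, of RNAiSvb or of both, or without either Ctrl library. The adhesion protein Nrg had 86.0, 112 and 70.3 CPM in SvbAct, 38.1, 24.3 and 30.4 CPM in RNAiSvb and 34.7 and 48.6 CPM in Ctrl (log2 difference 1.53, SE 0.23, edgeR quasi-likelihood adjusted p 0.00443). The smooth septate junction gene mesh, at 5700, 6530 and 5210 CPM in SvbAct and 3710, 3990 and 3910 CPM in RNAiSvb, did not overlap between groups and missed the threshold (adjusted p 0.0738). The brush border and cytoskeleton list had 4 of 25 called, all higher. That count was 1 without SvbAct replicate 1 or 2, RNAiSvb replicate 2 or either Ctrl library, and 2 without RNAiSvb replicate 3, and 1 without replicate 2 of both groups. Act42A, a cytoplasmic actin, had 528, 966 and 605 CPM in SvbAct and 191, 159 and 175 CPM in RNAiSvb and rose by 2.00. It belongs to a family with near-identical copies and is uncertain. The other calls in that list, Moe, bbg and cpa, were between 0.67 and 0.74 and were each held in 6 or fewer of the 15 alternatives. Removing either replicate 2 ended all of them, with adjusted p from 0.0785 for bbg to 0.142 for cpa.

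Among digestive enzymes, maltases and amylases were called in one direction and serine proteases in both. Maltases and amylases had 4 of 13 called, all lower in SvbAct (30.8%, against 2.21% of all genes), and all 13 differences were negative, with a median of -0.86. With 1 library left out 4 or 5 were called, and without replicate 2 of both groups 2. Amy-d (FBgn0000078, chromosome 2R, 17124764 to 17126369) had 34.9, 18.8 and 31.1 CPM in SvbAct, 459, 1230 and 352 CPM in RNAiSvb and 202 and 232 CPM in Ctrl. Amy-p had 431, 213 and 482 CPM in SvbAct, 1530, 2890 and 902 CPM in RNAiSvb and 773 and 612 CPM in Ctrl. In both genes SvbAct lay below Ctrl and RNAiSvb above it, with no overlap, and they fell by 4.59 and 2.24 (SE 0.47 and 0.42, edgeR quasi-likelihood adjusted p 0.000661 and 0.0127). The copies are near-identical, so counts may be shared between them. Mal-A3 fell by 1.38, with 228 to 343 CPM in SvbAct and 477 to 906 CPM in RNAiSvb, and it was lower than both in Ctrl, at 173 and 177 CPM. The amylase relative Amyrel fell by 2.03.

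Serine proteases moved in both directions, with 3 of 30 called higher (10.0%) and 3 lower (10.0%), also without replicate 2 of both groups. Jon66Ci had 252, 770 and 413 CPM in SvbAct, 8.45, 10.4 and 37.7 CPM in RNAiSvb and 110 and 123 CPM in Ctrl, and rose by 4.67 (SE 0.61, edgeR quasi-likelihood adjusted p 0.00212). Its neighbour Jon66Cii, at 14.3, 51.9 and 23.8 CPM against 0.409, 0.299 and 1.98 CPM, rose by 5.08. Jon65Aii ran the other way, with 616, 536 and 927 CPM in SvbAct, 2240, 3340 and 3290 CPM in RNAiSvb and 2350 and 2160 CPM in Ctrl, and fell by 2.09 (SE 0.25, adjusted p 0.00136). Jon99Ci fell by 2.36, with 39.9 to 57.7 CPM in SvbAct and 144 to 403 CPM in RNAiSvb. All are Jonah proteases, a family with near-identical copies, and are uncertain.

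In the list of lipid digestion, storage and export 6 of 34 genes were called higher (17.6%) and 2 lower (5.88%), with 19 positive differences and a median of 0.16. With 1 library left out 5 to 7 were called higher, and 4 without replicate 2 of both groups. The lower count was 0 without RNAiSvb replicate 2 or 3 or SvbAct replicate 1, and 1 without SvbAct replicate 2 or 3 or either Ctrl library. FASN1, the fatty acid synthase, had 358, 482 and 689 CPM in SvbAct, 146, 134 and 107 CPM in RNAiSvb and 235 and 330 CPM in Ctrl (log2 difference 1.98, SE 0.25, edgeR quasi-likelihood adjusted p 0.00182). SREBP, the transcription factor of fatty acid synthesis genes, had 222, 262 and 233 CPM in SvbAct, 132, 148 and 102 CPM in RNAiSvb and 294 and 261 CPM in Ctrl, so that RNAiSvb alone was low, and rose by 0.91 (SE 0.17, adjusted p 0.0126). The sterol-binding gene Npc2a had 15.1, 23.2 and 14.9 CPM in SvbAct, at most 3.76 CPM in RNAiSvb and 3.37 and 3.81 CPM in Ctrl, and rose by 2.38. Npc2e, of the same family, rose by 2.24, and the lipase gene Lip4 by 1.75. The lipase gene mag fell by 1.37, with 1670, 807 and 2000 CPM in SvbAct, 3310, 3850 and 4450 CPM in RNAiSvb and 6440 and 5830 CPM in Ctrl. Its call was lost without RNAiSvb replicate 2 (0.0674), RNAiSvb replicate 3 (0.0645) or SvbAct replicate 1 (0.0563).

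The peritrophic matrix, mucin and chitin list had 4 of 22 called, all higher (18.2%), and a median of 0.63, but 0 were called without replicate 2 of both groups. It was 1 without SvbAct replicate 2 or RNAiSvb replicate 3, and 2 without RNAiSvb replicate 2 or Ctrl replicate 2. The gene drd, needed in flies for a normal peritrophic matrix, had 1.32, 1.67 and 2.4 CPM in SvbAct, 0.182, 0.0427 and 0.242 CPM in RNAiSvb and 3.8 and 2.24 CPM in Ctrl. It rose by 3.50 (SE 0.71, edgeR quasi-likelihood adjusted p 0.019), which missed the threshold without SvbAct replicate 3 (0.051). The chitinase gene Cht6 had 3 counts over the RNAiSvb libraries and 91 over those of SvbAct, a ratio of 40.1 with a counting interval from 13.3 to 198, and lost its call without SvbAct replicate 2 (0.0629) or RNAiSvb replicate 3 (0.0524). The crystallin gene Crys, which no list held, had 137, 277 and 124 CPM in SvbAct, 26.2, 30.3 and 21.7 CPM in RNAiSvb and 63.3 and 69.6 CPM in Ctrl, and rose by 2.78 (SE 0.30, adjusted p 0.000756).

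Among detoxification enzymes, UDP-glycosyltransferases had 5 of 29 called higher (17.2%) and 4 lower (13.8%). The higher calls numbered 2 without SvbAct replicate 2 or RNAiSvb replicates 1 or 2, and 3 without SvbAct replicate 1, RNAiSvb replicate 3 or Ctrl replicate 2. The lower calls numbered 2 without SvbAct replicate 1 or RNAiSvb replicate 3. Without replicate 2 of both groups 2 were called higher and 4 lower. Ugt301D1 had 43.6, 92.2 and 65.9 CPM in SvbAct, 14.2, 17.2 and 11.4 CPM in RNAiSvb and at most 16.4 CPM in Ctrl, and rose by 2.23. Ugt36D1 had 5.79, 5.99 and 7.87 CPM in SvbAct, 26.2, 17.5 and 20.9 CPM in RNAiSvb and 22.8 and 16.3 CPM in Ctrl, and fell by 1.72. For both, Ctrl lay with RNAiSvb (SE 0.29 and 0.24, edgeR quasi-likelihood adjusted p 0.00182 and 0.0033). Cytochrome P450 genes had 1 of 54 called higher (1.85%) and 2 lower (3.70%). The lower count was 0 without RNAiSvb replicate 2 and 1 without RNAiSvb replicate 1, SvbAct replicates 2 or 3 or either Ctrl library. The higher count was 2 without RNAiSvb replicate 2, and without replicate 2 of both groups 2 were called higher and 0 lower. The rise in the full set was that of Cyp305a1, by 3.21. Glutathione transferases had 0 of 28 called by edgeR and a median of 0.13.

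Transporters of amino acids had 3 of 17 called higher (17.6%), 1 without SvbAct replicate 3 and 2 without replicate 2 of both groups. The transporter gene acs had 9.6, 10.9 and 13.6 CPM in SvbAct, 2.27, 1.37 and 2.03 CPM in RNAiSvb and 10.3 and 8.4 CPM in Ctrl, so the RNAiSvb libraries alone were low (log2 difference 2.59, SE 0.30, edgeR quasi-likelihood adjusted p 0.00109). The transporter gene sbm followed the same arrangement, at 131 to 169 CPM in SvbAct, 157 and 167 CPM in Ctrl and 40.9 to 79.7 CPM in RNAiSvb, and its rise of 1.14 was lost without SvbAct replicate 3 (adjusted p 0.051). In the list of glycolysis and carbohydrate stores 3 of 22 were called, all higher (13.6%). There was 1 without SvbAct replicate 2, RNAiSvb replicate 2 or either Ctrl library, and 0 without replicate 2 of both groups. The hexokinase gene Hex-A had 320, 463 and 416 CPM in SvbAct and 206, 154 and 137 CPM in RNAiSvb, and rose by 1.27 (SE 0.20, edgeR adjusted p 0.00577), a call lost without replicate 2 of both groups (0.0584). The pro-apoptotic gene hid had 139, 106 and 81.2 CPM in SvbAct, 30.0, 24.9 and 48.5 CPM in RNAiSvb and 72.6 and 108 CPM in Ctrl, and rose by 1.66 (SE 0.28, adjusted p 0.00863).

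Innate immune genes were called in both directions. Of 18 genes of peptidoglycan recognition and the IMD pathway 3 were called, all lower in SvbAct (16.7%), and 1 without SvbAct replicate 1 or 2 or without replicate 2 of both groups. They were the neighbouring amidase genes PGRP-SC1a, PGRP-SC1b and PGRP-SC2, whose products degrade peptidoglycan and damp the pathway. PGRP-SC1a had 1.54, 1.18 and 8.84 CPM in SvbAct, 39.6, 47.2 and 75.6 CPM in RNAiSvb and 8.4 and 6.4 CPM in Ctrl, so RNAiSvb was the high group. It fell by 3.80 (SE 0.64, edgeR quasi-likelihood adjusted p 0.00813). PGRP-SC1b and PGRP-SC2 fell by 1.77 and 1.45, and their calls were lost without SvbAct replicate 1 (0.0779 and 0.0565) or SvbAct replicate 2 (0.0752 and 0.0946). PGRP-SC1b also lost it without RNAiSvb replicate 3 (0.0697), and PGRP-SC2 without RNAiSvb replicates 1 or 2 (0.0535 and 0.0963). The cluster has near-identical copies and is uncertain. The amidase PGRP-LB and the inhibitor pirk overlapped between groups and did not pass. In the STING and antiviral list 2 of 12 rose (16.7%), and 1 when any RNAiSvb or Ctrl library was left out. The cyclic dinucleotide synthase gene cGlr1, a sensor of double-stranded RNA, had 23.3, 32.4 and 27.7 CPM in SvbAct, 2.54, 1.07 and 2.8 CPM in RNAiSvb and 6.63 and 5.68 CPM in Ctrl (log2 difference 3.70, SE 0.34, edgeR quasi-likelihood adjusted p 0.000396). Sting itself and the small RNA factors Dcr-2 and AGO2 had differences of 0.39, 0.42 and 0.35 and did not pass.

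Nuclear genes of translation and respiration had small differences, most of them short of the threshold. Of 76 cytosolic ribosomal protein genes 74 had a negative difference, the median was -0.54, and the CPM of the groups did not overlap for 45, all lower, while 3 were called (3.95%). Over all genes tested 14.9% were lower without overlap and 2.21% were called lower. The summed level was 50000, 55000 and 47300 CPM in SvbAct, 65300, 92400 and 62900 CPM in RNAiSvb and 69300 and 58900 CPM in Ctrl. The called genes RpL6, RpS27A and RpS3A fell by 0.74, 0.68 and 0.60. Each call was lost when any of SvbAct replicates 1, 2 and 3, RNAiSvb replicates 2 and 3 or either Ctrl library was left out, with edgeR adjusted p up to 0.141 for RpL6, 0.117 for RpS27A and 0.132 for RpS3A. RpL6 and RpS3A also lost theirs without RNAiSvb replicate 1 (0.0585 and 0.0561), and none of the 3 was called without replicate 2 of both groups. Over the whole list, members not called in the full set included, 0 to 3 were called lower with 1 library left out. That count was 1 without RNAiSvb replicate 3, and it was 0 without replicate 2 of both groups. Mitochondrial ribosomal protein genes had 61 of 69 differences below 0, a median of -0.46 and 4 calls, all lower (5.80%). There were 0 without SvbAct replicates 2 or 3, RNAiSvb replicate 2 or replicate 2 of both groups, and 1 without SvbAct replicate 1, RNAiSvb replicate 3 or either Ctrl library.

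Nuclear genes of oxidative phosphorylation had 58 of 67 differences below 0, a median of -0.39 and 10 calls, all lower (14.9%). Leaving out 1 library gave 1 to 5 calls, with 2, 3 and 2 without SvbAct replicates 1, 2 and 3, 5, 1 and 4 without those of RNAiSvb and 5 without either Ctrl library. Without replicate 2 of both groups 2 were called. The complex I gene ND-30 had 75.6, 89.3 and 77.4 CPM in SvbAct, 132, 196 and 127 CPM in RNAiSvb and 96.7 and 80.3 CPM in Ctrl, and fell by 0.91 (SE 0.19, edgeR quasi-likelihood adjusted p 0.0205). Its call was lost without RNAiSvb replicate 2 (0.0507), SvbAct replicate 1 (0.0673) or SvbAct replicate 3 (0.0568). The complex I gene ND-B14 fell by 0.93, a call lost without RNAiSvb replicate 2 (0.0785). The 20 genes of the mitochondrial genome all had a positive difference, with a median of 1.4, and 0 were called by edgeR (an unadjusted p below 0.05 was met by 13, with a smallest adjusted p of 0.107). Their summed level was 57200, 99900 and 37200 CPM in SvbAct and 48100, 22500 and 28200 CPM in RNAiSvb, which overlap. Aminoacyl-tRNA synthetases had 30 of 32 differences below 0 and a median of -0.38, heat shock proteins had 18 of 21 below 0 and a median of -0.25, and in neither list was a gene called by edgeR. Proteasome genes had 0 of 31 called and a median of -0.07.

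Cell cycle and replication genes had 2 of 42 called higher (4.76%) and 1 lower (2.38%), near the shares of all genes, with a median of 0.48. The higher calls numbered 1 without SvbAct replicate 2 or RNAiSvb replicates 1 or 2, and the lower count was 0 without RNAiSvb replicate 3 or any SvbAct or Ctrl library. Without replicate 2 of both groups there were 1 and 0. Apart from SMC2, the sliding clamp gene PCNA had 3.53, 8.42 and 4.9 CPM in SvbAct and 1.09, 0.769 and 1.11 CPM in RNAiSvb, and its rise was lost without SvbAct replicate 2 (edgeR adjusted p 0.0923) or RNAiSvb replicates 1, 2 or 3 (0.0528, 0.0757 and 0.0545). The helicase subunit gene Mcm2 overlapped between groups, with a difference of 0.03.

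By position, 14.5% of 351 placed genes called higher had a directly adjacent tested gene that was also called higher, against 7.85% of all placed genes tested. For genes called lower the shares were 10.4% of 193 and 4.37%. The longest runs of adjacent called genes in one direction were of 3. One of them, on chromosome 2R from 16380516 to 16533459, held CG43187 and the guidance ligands Sema2b and Sema2a, which rose by 2.49, 2.79 and 1.08. Such counts include overlapping and duplicated neighbours, such as the PGRP-SC genes, whose part was not tested. Exon overlap with another gene was found for 34.8% of called genes and 41.6% of tested genes. Called genes made up between 5.58% and 7.31% of those tested on each of the chromosome arms 2L, 2R, 3L, 3R, 4 and X.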

How the data were processed

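The authors deposited raw whole-number counts by FlyBase gene ID, made from single-read RNA sequencing of total RNA. FastQC 0.11.5, STAR 2.5.2b, HTSeq 0.6.0, edgeR and the build dm6 are named in the submitters' processing notes, with strand handling and settings not given in the sources used here. Symbols (for 9060 of 9177 IDs) and coordinates came from Ensembl's BDGP6.54 annotation. The authors' own comparisons in the table were not used.

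Counts were tested in R 4.3.3 with edgeR 4.0.16 (quasi-likelihood test, TMM factors, filterByExpr on group, the 8 libraries fitted together, one mean for each group). The filter left out 402 genes, 24 of them at 0 in all libraries, and Benjamini-Hochberg adjustment ran over the 8775 tested, with a threshold of 0.05. Each SE was derived from the test (absolute log2 fold change over the root of F). The script was tested on simulated data. Replicates of a group differed by more than sampling noise. The common biological coefficient of variation was 0.282.

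Alternatives were the DESeq2 1.42.0 Wald test, its size factors, library totals, no filter, the 6 compared libraries alone and a replicate block. Each library was also left out in turn, as was replicate 2 of both groups together, which made 15 settings. A threshold of 0.01 was applied besides and is not among the 15. Named by rule were ovo, the 10 largest differences per direction among called genes of average log2 CPM of at least 2 without overlap, the 5 smallest adjusted p per direction, and up to 4 called members of each list per direction. The rule named 131 genes. Other genes in the text, N, Delta and E(spl)malpha-BFM among them, were chosen after their values were seen. The groups, rule and lists were chosen with earlier results of these data known, so no list is independent support.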

Additional observations from a re-analysis of the deposited data

How the results depend on the processing

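The DESeq2 Wald test called 1054 genes, 637 higher and 417 lower in SvbAct. At an adjusted p under 0.01 there were 160, 125 higher and 35 lower. Without replicate 2 of both groups, chosen after seeing the data, there were 197, 143 higher and 54 lower. Leaving out one library gave 262 to 497 calls, 189 to 318 higher and 66 to 179 lower. A fit of the 6 compared libraries called 110 genes lower, against 194, and 394 in all. The difference of ovo ran from 4.26 to 5.31 and stayed called in all 15 alternatives. With the replicate number as a block 443 genes passed, 303 higher and 140 lower. The main fit had no block because the labels do not tie replicate numbers between groups. Correlations of same-numbered libraries' deviations from their group means were -0.0166, 0.0794 and 0.116, and those of other pairs ran from -0.199 to 0.153. Not every library correlated best with its own number, and replicate 2 of both groups lay together on the second component. Deviations within groups of 3 cannot decide whether same-numbered libraries share more than a number, which was not tested. DESeq2 size factors, library totals and no filter gave 529, 521 and 543 calls. No called gene reversed in any setting. Of 1948 pairs of a named gene and a setting, 1485 kept their call and 463 lost it, and 54 of the 131 named genes were called throughout. The cause of lost calls was not tested.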

Other observations

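Genes of axon guidance and cell adhesion, which the lists above did not hold, were picked after their values were seen and carry no test as a group. CadN2, a cadherin known from neurons, had 62.2, 51.9 and 33.2 CPM in SvbAct, 2.82, 4.4 and 1.55 CPM in RNAiSvb and 5.08 and 7.67 CPM in Ctrl, and rose by 4.06 on the log2 scale (SE 0.40, edgeR quasi-likelihood adjusted p 0.000459). The cell surface receptor Dscam1 had 88.3, 98.4 and 79.1 CPM in SvbAct, 26.5, 18.2 and 25.5 CPM in RNAiSvb and 26.1 and 23.1 CPM in Ctrl, and rose by 1.92 (SE 0.18, adjusted p 0.000396). The guidance ligand sli had 188, 264 and 183 CPM in SvbAct, 88.6, 80.7 and 67.9 CPM in RNAiSvb and 203 and 212 CPM in Ctrl, so the RNAiSvb libraries alone were low, and rose by 1.42. Its receptor robo1 rose by 1.37, the leucine-rich repeat gene trn by 1.66, the kinesin gene unc-104 by 1.63 and the formin gene Frl by 1.62. The call of robo1 was lost without replicate 2 of both groups (adjusted p 0.0536). Dscam1, Frl and unc-104 share exon sequence with other annotated genes. Of 9 neuronal markers 0 were called by edgeR, with differences from -0.20 to 0.63, 8 of them positive, and a median of 0.40. Their summed level was 440, 472 and 449 CPM in SvbAct, 394, 238 and 314 CPM in RNAiSvb and 378 and 447 CPM in Ctrl. SvbAct and RNAiSvb did not overlap in this sum, and the part of nerve cells in these values was not tested.

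Other genes that rose also lay outside the lists. The flippase gene ATP8B had 52.4, 68.7 and 40.6 CPM in SvbAct, 11.4, 7.35 and 8.07 CPM in RNAiSvb and 5.67 and 6.71 CPM in Ctrl, and rose by 2.59. The thioester protein gene Tep2, an immune factor, rose by 2.28, with 14.2 to 19.7 CPM in SvbAct and 2.91 to 4.83 CPM in RNAiSvb. The stress factor Atf3 had 1650, 1460 and 1630 CPM in SvbAct, 879, 619 and 757 CPM in RNAiSvb and 660 and 938 CPM in Ctrl, and rose by 1.07. Its call was lost without replicate 2 of both groups (adjusted p 0.0611).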
